A study of Arabidopsis thaliana with 24 samples.

Results

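The cytosolic ribosomal proteins of the large subunit, from L3 to L21, were followed as transcripts in Arabidopsis thaliana. The set was defined as 54 gene loci, each known to encode a 60S protein, and a locus was kept where the platform's probe-to-gene table gave it a feature with exactly 1 gene. Of the 54 loci 36 were kept, through 36 of the 28583 features of the array, and no kept locus had a second such feature. They belong to 15 protein families. Among the 18 other loci, 5 occur only in features shared by several genes (AT1G33120, AT1G09590, AT1G09690, AT1G57660 and AT1G57860) and 13 were not measured under a name. The rule for membership used no measured value, although the set was chosen with earlier results of these data known. Protein names such as L4 follow the general ribosome nomenclature, since the annotation used here gives a symbol other than the locus to a single member, PGY1 (AT2G27530).

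The large subunit of the ribosome holds the centre that joins amino acids and the tunnel through which the new chain leaves. Its proteins are made in the cytosol, imported into the nucleolus, assembled on ribosomal RNA and exported, and they are needed in near-equal amounts. In Arabidopsis each protein is encoded by a small family of similar genes, and transcripts of cytosolic ribosomal proteins are known to be abundant in growing organs. Sulfur enters proteins through cysteine and methionine. RPT2, after which the mutant is named, is an ATPase subunit of the regulatory particle of the proteasome, which degrades tagged proteins.

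Plants of 2 genotypes were compared, the mutant rpt2-3a and Col-0, the accession commonly used as wild type. All were raised in hydroponic culture in short days (8 h of light, 16 h of darkness) and received complete medium for 5 weeks, after which one set was moved to medium deficient in sulfur for 5 days while the other stayed on normal supply. RNA of roots and of rosettes was hybridised separately to single-colour Affymetrix arrays. The 8 groups, each of 3 arrays described as biological replicates, were roots of rpt2-3a under deficient and normal supply, roots of Col-0 under deficient and normal supply, and rosettes of the same 4 kinds. The labels name the genotype only, and neither what the allele alters nor how plants were pooled is given in the sources used here.

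The organ labels held for markers of both organs. RCA, the activase of Rubisco, lay between 3.37 and 4.55 on the 12 root arrays against 10.79 to 11.12 on the 12 rosette arrays, and EXPA7, an expansin of root hairs, between 7.31 and 7.89 in roots against 1.81 to 2.62 in rosettes (log2 expression values). Neither RPT2A nor RPT2B has a feature of its own here, so the genotype labels were not checked on the level of RPT2. The median of all features was between 4.47 and 4.55 on root arrays and between 4.03 and 4.14 on rosette arrays, a shift between organs that affects every comparison of roots with rosettes below. Arrays give no count depth, and 3 arrays a group limit the precision.

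Of the 36 members, 33 belonged to the brighter features, those with a mean above the median of all features. The remaining 3 averaged below the median of every array: AT5G60670 (L12) averaged 2.84 over the 24 arrays, AT2G47570 (L18) 2.66 and AT3G51190 (L8) 2.47. Whether these 3 were detected above background is not known from the values, and levels of different features are not compared with each other. Close paralogues may also share probe signal, and their sequences were not compared here.

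Taken as a mean over the 36 members, the level was higher on each root array than on any rosette array. It lay between 6.84 and 7.10 on root arrays and between 6.47 and 6.68 on rosette arrays. In roots the mean was 6.94 ± 0.087 in rpt2-3a and 7.02 ± 0.10 in Col-0 under deficient supply, and 6.95 ± 0.060 in rpt2-3a and 6.93 ± 0.073 in Col-0 under normal supply (SD, n = 3 each). In rosettes it was 6.65 ± 0.031 in rpt2-3a and 6.53 ± 0.081 in Col-0 under deficient supply, and 6.53 ± 0.025 in rpt2-3a and 6.60 ± 0.047 in Col-0 under normal supply. The 3 rpt2-3a rosette arrays under deficient supply did not overlap with the 3 under normal supply, whereas the corresponding Col-0 rosette arrays overlapped, as did the root arrays of either genotype. In these mixed organs, fewer cells of a type and less RNA per cell cannot be told apart.

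**Figure D1:**
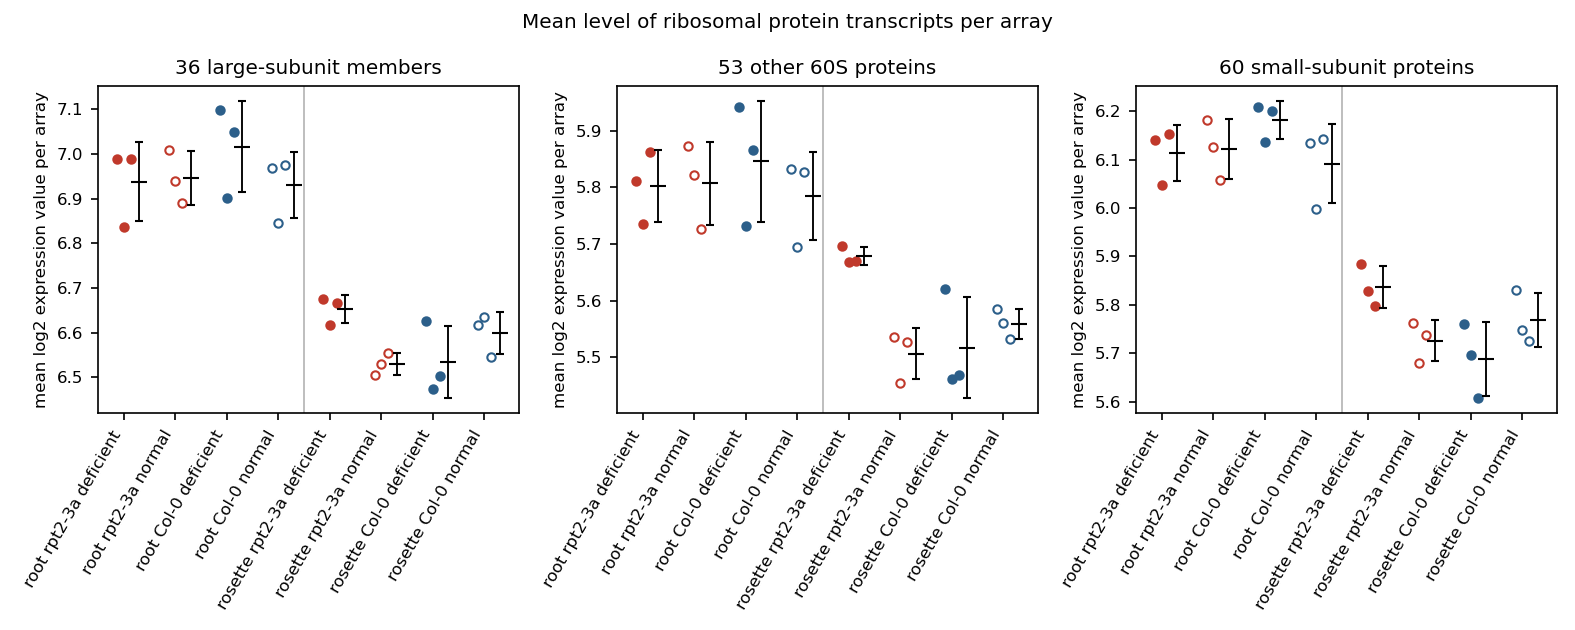
Mean log2 expression value per array over the 36 large-subunit members, 53 other 60S proteins and 60 small-subunit proteins (each panel has its own axis, which does not start at 0). Points are arrays (red rpt2-3a, blue Col-0, filled deficient, open normal supply) and black bars are group means ± SD (n = 3). The 12 root arrays, at 6.84 to 7.10 for the members, sit above the 12 rosette arrays, at 6.47 to 6.68.

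The first comparison asked whether the mutant differed from Col-0 in rosettes. Under normal supply 10 of the 36 members had a higher mean in rpt2-3a and 26 a lower one, with a median log2 change of −0.063 against 0 over all features and −0.043 over the brighter features. With arrays centred on their median or quantile normalized it was −0.023. None of the 36 passed (limma, Benjamini-Hochberg adjusted p under 0.05 over all features; smallest 0.258), where 2.01% of all features did. At an unadjusted p under 0.05 there were 3 members, all lower in rpt2-3a, beside 14.3% of all features. The 95% intervals of the 36 changes ran from −0.61 to 0.43.

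The lowest changes in rpt2-3a rosettes under normal supply were those of an L12 gene and of a neighbouring pair of L6 genes. AT2G37190 (L12, at the base of the stalk where translation factors bind) had 4.99, 4.43 and 5.02 in rpt2-3a against 5.14, 5.08 and 5.12 in Col-0 (−0.30 ± 0.15, mean log2 change ± SE, adjusted p = 0.373). The groups did not overlap, and 1 rpt2-3a array, at 4.43, lay well below the other two. AT1G74050 (L6) had 5.92, 5.71 and 6.12 in rpt2-3a against 6.20, 6.20 and 6.17 in Col-0 (−0.27 ± 0.11, adjusted p = 0.276). AT1G74060 (L6) had 6.75, 6.78 and 6.96 in rpt2-3a against 7.09, 7.05 and 7.15 in Col-0 (−0.27 ± 0.11, adjusted p = 0.258). L6 has no bacterial counterpart, and its genes AT1G74050 and AT1G74060 are next to each other among the coding genes of the TAIR10.1 annotation. Both were lower on each rpt2-3a array than on any Col-0 array. At the upper end stood AT3G53430 (L12), with 6.99, 6.55 and 6.72 in rpt2-3a against 6.67, 6.77 and 6.41 in Col-0 (0.14 ± 0.13). AT1G67430 (L17, one of the proteins lining the exit tunnel) had 9.39, 9.33 and 9.20 in rpt2-3a against 9.16, 9.15 and 9.22 in Col-0 (0.13 ± 0.096). The arrays of the genotypes overlapped for both. AT4G17390 (L15) had 7.42, 7.78 and 7.51 in rpt2-3a against 7.55, 7.45 and 7.39 in Col-0 (0.11 ± 0.11), again with overlap.

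Under deficient supply 28 of the 36 members had a higher mean in rpt2-3a rosettes than in Col-0 rosettes and 7 a lower one. Their median log2 change was 0.14, against 0.023 over all features and 0.017 over the brighter features, and it was 0.206 without replicate 1 of the Col-0 rosettes. Here no member passed (smallest adjusted p = 0.274), beside 0.322% of all features. Unadjusted p-values under 0.05 were found for 5 members that were higher and 1 that was lower, beside 10.4% of all features. The intervals ran from −0.78 to 0.73.

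AT2G47570 (L18), one of the dim features, had 2.88, 2.49 and 2.64 in rpt2-3a against 2.24, 2.22 and 2.50 in Col-0 (0.35 ± 0.18, adjusted p = 0.527) and its arrays overlapped. AT3G14600 (L18a) had 7.88, 7.97 and 7.94 in rpt2-3a against 7.81, 7.48 and 7.53 in Col-0 (0.32 ± 0.10, adjusted p = 0.274). AT5G27850 (L18) had 7.58, 7.53 and 7.62 in rpt2-3a against 7.30, 7.36 and 7.16 in Col-0 (0.30 ± 0.098, adjusted p = 0.275). L18 and L18a are separate proteins despite their names, and for both of these genes every rpt2-3a array lay above every Col-0 array. The dim L12 gene AT5G60670 had 2.58, 2.78 and 2.56 in rpt2-3a against 3.13, 2.56 and 3.18 in Col-0 (−0.32 ± 0.21) and overlapped. AT1G74050 (L6) had 6.15, 5.99 and 5.91 in rpt2-3a against 6.25, 6.26 and 6.29 in Col-0 (−0.25 ± 0.11, adjusted p = 0.456), without overlap. AT4G10450 (L9, close to the site where translation factors bind) had 5.69, 5.53 and 5.47 in rpt2-3a against 5.78, 5.57 and 5.59 in Col-0 (−0.083 ± 0.12), with overlap. AT1G74050 was thus lower in rpt2-3a rosettes at either supply, by 0.25 to 0.27 on the log2 scale, and passed at neither. The comparisons share no arrays but use a common estimate of the spread. The gene was picked as 1 of the 3 lowest members in each, and features lower at both supplies were not counted.

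The response to sulfur deficiency was compared next. In rpt2-3a rosettes 32 of the 36 members had a higher mean under deficient than under normal supply, with a median log2 change of 0.098 against 0 over all features and 0.020 over the brighter features. A higher mean was found for 49.2% of all features and 54.4% of the brighter features. The test was passed by no member (smallest adjusted p = 0.1), beside 1.55% of all features. At an unadjusted p under 0.05 were 8 members, all higher, beside 13% of all features. The highest was AT3G24830 (L13a), with 6.84, 6.92 and 7.08 under deficient supply against 6.35, 6.64 and 6.62 under normal supply (0.41 ± 0.11, adjusted p = 0.1). AT3G14600 (L18a) had 7.88, 7.97 and 7.94 under deficient supply against 7.53, 7.50 and 7.67 under normal supply (0.36 ± 0.10, adjusted p = 0.128). For both, each array under deficient supply lay above each array under normal supply. These 2 members passed when dim features were left out (adjusted p = 0.0393 for AT3G24830 and 0.0478 for AT3G14600) and when the variance was moderated along the mean level with robust settings (0.0401 for AT3G24830 and 0.0385 for AT3G14600). The lowest member was AT3G16780 (L19), with 6.49, 6.23 and 6.48 under deficient supply against 6.34, 7.06 and 6.60 under normal supply (−0.27 ± 0.15), and its arrays overlapped.

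In Col-0 rosettes 9 members had a higher mean under deficient supply and 27 a lower one, with a median log2 change of −0.060 against −0.023 over all features. Over the brighter features the median was −0.033, and 40% of them had a higher mean. With arrays centred on their median the members' median was −0.037, and with quantile normalization −0.033. No member passed (smallest adjusted p = 0.234), beside 0.129% of all features, and 1 member, lower, was under an unadjusted p of 0.05, beside 8.45%. That member was AT5G02870 (L4, which reaches into the exit tunnel). It had 7.64, 7.49 and 7.31 under deficient supply against 7.87, 7.92 and 7.88 under normal supply (−0.41 ± 0.11), with no overlap, and the 3 values under deficient supply lay further apart than those under normal supply. Without replicate 1 of the Col-0 rosettes under deficient supply the median of the members was −0.133 in place of −0.060. It was −0.036 without replicate 2 of the same group and −0.096 without replicate 3 of the Col-0 rosettes under normal supply.

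The difference of the responses in rosettes, that of rpt2-3a minus that of Col-0, was above 0 for 32 members. Its median was 0.17, against 0.027 over all features and 0.060 over the brighter features. Neither a member (smallest adjusted p = 0.327) nor any other feature passed (0%). At an unadjusted p under 0.05 were 7 members, all above 0, beside 9.27% of all features. AT2G37190 (L12) had the highest difference, 0.55 ± 0.21 (95% interval 0.10 to 0.99), and AT5G02870 (L4) the next, 0.53 ± 0.16 (0.19 to 0.87). AT5G60670 (L12) had the lowest, −0.23 ± 0.30. The 5 rosette comparisons share their arrays, so that the 3 rpt2-3a arrays under deficient supply enter the changes of both genotype and supply given above. The same holds for the 5 root comparisons that follow.

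The same comparisons were made in roots. Under normal supply 22 members had a higher mean in rpt2-3a and 14 a lower one, with a median log2 change of 0.022 against 0.007 over all features. The sign of this median turned without replicate 2 of the Col-0 roots (−0.022) or replicate 1 of the rpt2-3a roots (−0.002), and it was 0.046 without replicate 3 of the rpt2-3a roots. No member passed (smallest adjusted p = 0.815), beside 0.577% of all features, and no member was under an unadjusted p of 0.05, beside 9.23%. The intervals ran from −0.48 to 0.61. The highest was AT2G20450 (L14), with 7.79, 7.63 and 7.55 in rpt2-3a against 7.50, 7.29 and 7.66 in Col-0 (0.17 ± 0.15). AT3G24830 (L13a) had 7.13, 6.88 and 7.09 in rpt2-3a against 6.94, 6.65 and 7.02 in Col-0 (0.16 ± 0.14). AT5G27850 (L18) had 7.92, 7.61 and 7.61 in rpt2-3a against 7.67, 7.15 and 7.85 in Col-0 (0.16 ± 0.16), where 1 Col-0 array, at 7.15, lay apart. The genotypes overlapped for all 3 of these genes. AT2G37190 (L12) stood lowest, with 5.89, 5.80 and 5.76 in rpt2-3a against 5.97, 5.75 and 6.20 in Col-0 (−0.16 ± 0.13). AT4G36130 (L8, next to the centre where amino acids are joined) had 5.92, 5.97 and 5.48 in rpt2-3a against 6.09, 5.77 and 5.97 in Col-0 (−0.15 ± 0.13). Here 1 rpt2-3a array, at 5.48, lay apart. AT1G27400 (L17) had 6.92, 6.89 and 6.92 in rpt2-3a against 6.98, 7.17 and 7.00 in Col-0 (−0.14 ± 0.16). Each rpt2-3a array lay below each Col-0 array for AT1G27400, and the genotypes overlapped for AT2G37190 and AT4G36130. The L13a gene AT5G48760 had the same change as AT1G27400, with 7.10, 6.95 and 6.81 in rpt2-3a against 7.05, 7.12 and 7.11 in Col-0 (−0.14 ± 0.12), and its arrays overlapped.

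Under deficient supply 7 members had a higher mean in rpt2-3a roots than in Col-0 roots and 29 a lower one. The median log2 change was −0.080, against −0.007 over all features and −0.033 over the brighter features. Leaving out 1 array moved this median to −0.036 (without replicate 2 of the rpt2-3a roots), −0.038 (without replicate 1 of the Col-0 roots) or −0.136 (without replicate 2 of the Col-0 roots). Again no member passed (smallest adjusted p = 0.441), beside 0.77% of all features, and 1, lower, was under an unadjusted p of 0.05, beside 10.8%. That 1 was AT2G37190 (L12), with 5.86, 5.56 and 5.92 in rpt2-3a against 5.95, 6.22 and 6.06 in Col-0 (−0.30 ± 0.13), the genotypes not overlapping. AT1G27400 (L17) had 6.96, 6.65 and 7.05 in rpt2-3a against 7.35, 6.69 and 7.28 in Col-0 (−0.22 ± 0.16), with overlap. AT1G74060 (L6) had 7.34, 7.35 and 7.34 in rpt2-3a against 7.82, 7.40 and 7.45 in Col-0 (−0.21 ± 0.13), without overlap. Its neighbour AT1G74050 had the highest change of the 36, with 6.18, 5.96 and 6.45 in rpt2-3a against 5.97, 6.12 and 6.07 in Col-0 (0.14 ± 0.13). PGY1 (AT2G27530, an L10a gene known for its mutant's effect on leaf polarity) had 7.34, 7.08 and 7.27 in rpt2-3a against 7.31, 6.97 and 7.08 in Col-0 (0.11 ± 0.11). AT1G18540 (L6) had 7.67, 7.52 and 7.65 in rpt2-3a against 7.45, 7.50 and 7.57 in Col-0 (0.11 ± 0.094), and these last 3 genes overlapped between genotypes. Markers of the organs moved in the same comparison. All 4 measured rosette markers of 8 listed had lower means in rpt2-3a roots (median −0.34, range −0.47 to −0.25), and all 3 measured root markers of 8 listed had higher ones (0.077 to 0.13). The log2 of the summed rosette markers lay between 5.42 and 5.74 in rpt2-3a roots against 5.62 to 6.38 in Col-0 roots, and none was at 0. No marker passed, and their part in the members' change was not tested.

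Neither genotype had a member that passed for sulfur deficiency in roots. In rpt2-3a roots 18 members were above 0 and 18 below, the median was 0 (−0.034 to 0.054 when 1 array was left out) against −0.007 over all features, the smallest adjusted p was 0.715, and no member was under an unadjusted p of 0.05. Of all features 0.143% passed and 8.74% were under an unadjusted p of 0.05. In Col-0 roots 31 members had a higher mean under deficient supply, with a median of 0.092 against 0.007 over all features and 0.033 over the brighter features. Without 1 of the arrays under deficient supply this median was 0.052 (replicate 1), 0.163 (replicate 2) or 0.053 (replicate 3), and without replicate 2 under normal supply it was 0.059. The smallest adjusted p was 0.447, beside 0.875% of all features that passed, and 2 members, both higher, were under an unadjusted p of 0.05, beside 9.41% of all features. These were AT4G17390 (L15), with 8.22, 7.86 and 8.14 under deficient supply against 7.87, 7.77 and 7.82 under normal supply (0.25 ± 0.10), and AT5G02870 (L4). AT5G02870 had 7.88, 7.87 and 7.79 under deficient supply against 7.65, 7.57 and 7.71 under normal supply (0.20 ± 0.087). The arrays overlapped for AT4G17390 and did not for AT5G02870. The difference of the root responses, rpt2-3a minus Col-0, had a median of −0.093 over the members. It was −0.013 over all features and −0.037 over the brighter features. Above 0 were 5 members, beside 40.8% of the brighter features. No member passed (smallest adjusted p = 0.939) and none was under an unadjusted p of 0.05. Of all features 0.0105% passed that comparison and 5.45% were under an unadjusted p of 0.05. The members' median was −0.162 without replicate 3 of the rpt2-3a roots under normal supply and −0.157 without replicate 2 of the Col-0 roots under deficient supply. It was −0.045 without replicate 2 of the rpt2-3a roots and −0.057 without replicate 1 of the Col-0 roots, both under deficient supply. The 4 rosette markers were below 0 in that comparison too (median −0.50), and the 3 root markers above 0. Between supplies in rpt2-3a roots, where the members' median was 0, the 4 rosette markers were also below 0 (median −0.39). The 3 root markers were above 0 there (0.29 to 0.37). Between supplies in Col-0 roots 3 of the 4 rosette markers were above 0 (median 0.043). The part of the markers in these changes was not tested.

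The genotype difference was then set against the organ, as the difference in roots minus that in rosettes. Under normal supply it was above 0 for 23 members, and for 58.2% of the brighter features. The members had a median of 0.10, against 0.010 over all features and 0.047 over the brighter features. That median was 0.029 without replicate 2 of the Col-0 roots, 0.052 without replicate 1 of the rpt2-3a roots and 0.062 without replicate 1 of the Col-0 rosettes. With centred arrays it was 0.043, and with quantile normalization 0.044. No member passed (smallest adjusted p = 0.265), beside 1.32% of all features. AT5G02870 (L4), at 0.34 ± 0.13, was the 1 member under an unadjusted p of 0.05, beside 12.2% of all features. Under deficient supply it was below 0 for 33 members, with a median of −0.23 against −0.033 over all features and −0.057 over the brighter features. No member passed (smallest adjusted p = 0.248), beside 0.465% of all features, and 1 member above 0 and 4 below were under an unadjusted p of 0.05, beside 9.62%. The lowest were AT2G37190 (L12) at −0.54 ± 0.20 and AT3G14600 (L18a) at −0.51 ± 0.17, and the highest was AT1G74050 (L6) at 0.39 ± 0.17. In each of the 10 comparisons within an organ and these 2 between organs, the 95% interval of every one of the 36 members lay within a change of 2-fold in either direction. Over these comparisons the share of features above 0 ran from 43.6% to 55.4% for all features, and from 38.7% to 60.9% for the brighter features. In the comparisons of 2 groups the intervals reached to either side of the change by a median of 0.24 in rosettes and 0.27 in roots. For the differences of responses this reach was 0.34 in rosettes and 0.39 in roots, and for the genotype difference between organs 0.36. Changes well below these sizes were not detectable for single genes. These intervals are pointwise, and larger changes also failed after adjustment over all features. AT3G24830, at 0.41 between supplies in rpt2-3a rosettes, was 1 of them (adjusted p = 0.1).

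**Figure D2:**
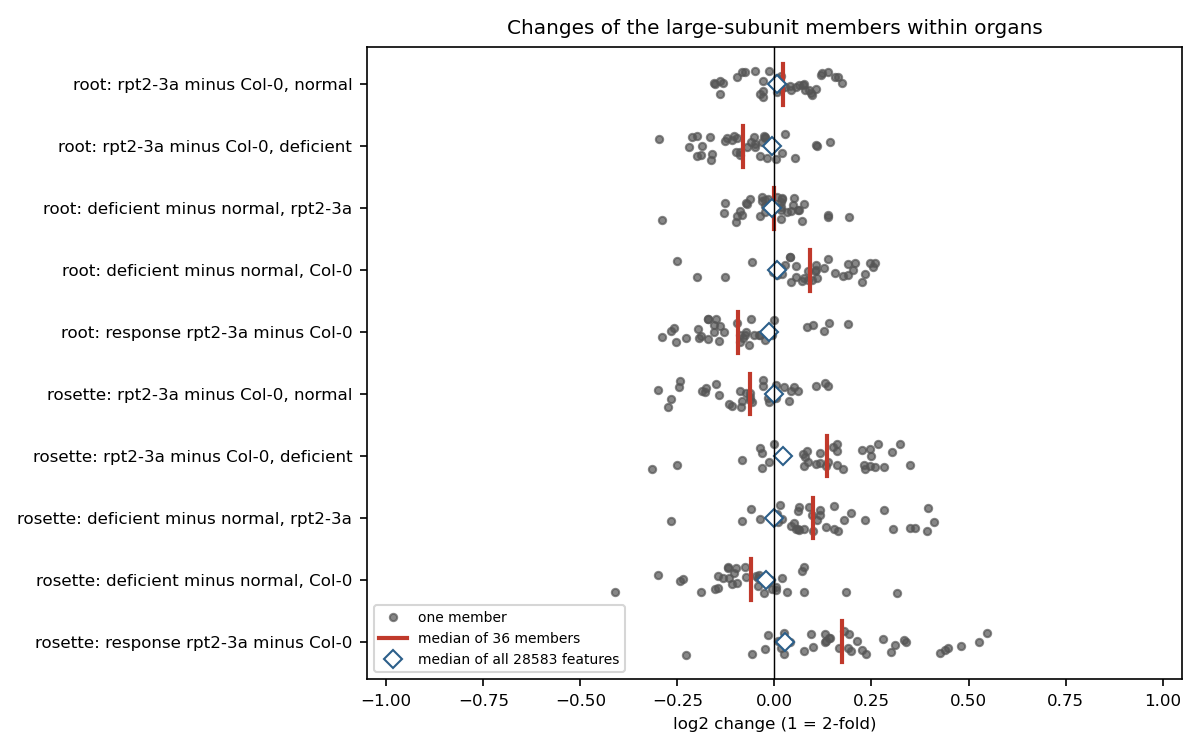
Log2 changes of the 36 large-subunit members (grey points) in the 5 root and 5 rosette comparisons, with the members' median (red bar) and the median of all 28583 features (blue diamond); points are spread vertically to be visible, and a response is deficient minus normal supply. In rosettes the red bar stands at 0.14 for rpt2-3a minus Col-0 under deficient supply and at 0.17 for the difference of responses, and none of the points passed the test.

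Roots and rosettes were compared under normal supply, genotype by genotype. On the deposited values 27 members were higher in rpt2-3a roots than in rpt2-3a rosettes and none was lower, with a median log2 difference of 0.37. In Col-0, 18 members were higher in roots and 1 was lower, with a median of 0.29. Of all features 42.7% were higher and 19.8% lower in rpt2-3a roots, and 43.3% were higher and 20.1% lower in Col-0 roots. The median over all features was 0.20 in rpt2-3a and 0.21 in Col-0, and over the brighter features, to which 33 members belong, it was 0.39 in rpt2-3a and 0.35 in Col-0, above the members' own medians. The genotypes had 17 members in common among those higher in roots, which are 17 of the 27 of rpt2-3a and 17 of the 18 of Col-0. The overlap over all features was not counted, so it is not known whether the members stand out in this. The difference of the organ effect between genotypes, given above, passed for no member.

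These counts depended on the scaling of the arrays. When each array was centred on its own median, the median over all features moved by −0.43 in rpt2-3a and −0.38 in Col-0, and 4 members were then higher and 5 lower in rpt2-3a roots, against 4 higher and 4 lower in Col-0 roots. Of all features 25.3% were then higher and 43.4% lower in rpt2-3a roots, and 26.9% were higher and 38.4% lower in Col-0 roots. The members' median became −0.062 for rpt2-3a and −0.090 for Col-0. With quantile normalization the median over all features moved by −0.19 in each genotype, 12 members were higher and 0 lower in rpt2-3a, and 11 were higher and 1 lower in Col-0, with a median of 0.19 for rpt2-3a and 0.16 for Col-0. The share of members that was higher, 33.3% in rpt2-3a and 30.6% in Col-0, lay beside 31.9% of all features for rpt2-3a and 32.8% for Col-0, and 27.5% of all features were lower in rpt2-3a and 27.9% in Col-0. Among all features that passed, the share that was higher in roots was 68.3% in either genotype on deposited values. It was 36.8% in rpt2-3a and 41.2% in Col-0 after centring, and 53.7% in rpt2-3a and 54% in Col-0 after quantile normalization. A common direction of the members between organs is therefore relative to the scaling, and what follows gives deposited values unless stated.

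Passing in the same direction under the 3 scalings in both genotypes was found for 4 members, each of another family and each higher in roots. Features passing by this rule were not counted over the whole array, so whether the members stand out in it is not known. AT2G37190 (L12) had 5.89, 5.80 and 5.76 in rpt2-3a roots against 4.99, 4.43 and 5.02 in rpt2-3a rosettes, and 5.97, 5.75 and 6.20 in Col-0 roots against 5.14, 5.08 and 5.12 in Col-0 rosettes. Its difference was 1.00 ± 0.14 in rpt2-3a and 0.86 ± 0.14 in Col-0 (adjusted p = 1.5e-06 in rpt2-3a and 1.24e-05 in Col-0), and over the scalings it ranged from 0.48 to 1.00. AT3G13580 (L7) had 7.27, 7.19 and 7.09 in rpt2-3a roots against 6.38, 6.38 and 6.39 in rpt2-3a rosettes, and 7.10, 7.10 and 7.27 in Col-0 roots against 6.51, 6.54 and 6.53 in Col-0 rosettes. It differed by 0.80 ± 0.081 in rpt2-3a and 0.63 ± 0.081 in Col-0 (adjusted p = 6.94e-09 in rpt2-3a and 3.18e-07 in Col-0), with a range of 0.25 to 0.80 over the scalings. AT3G14600 (L18a) had 8.51, 8.35 and 8.33 in rpt2-3a roots against 7.53, 7.50 and 7.67 in rpt2-3a rosettes, and 8.37, 8.36 and 8.44 in Col-0 roots against 7.72, 7.69 and 7.64 in Col-0 rosettes. Its difference was 0.83 ± 0.12 in rpt2-3a and 0.71 ± 0.12 in Col-0 (adjusted p = 1.76e-06 in rpt2-3a and 1.57e-05 in Col-0), and the scalings gave 0.33 to 0.83. AT4G36130 (L8) had 5.92, 5.97 and 5.48 in rpt2-3a roots against 4.96, 5.16 and 5.09 in rpt2-3a rosettes, and 6.09, 5.77 and 5.97 in Col-0 roots against 5.25, 5.27 and 5.02 in Col-0 rosettes. It differed by 0.72 ± 0.13 in rpt2-3a and 0.76 ± 0.13 in Col-0 (adjusted p = 2.78e-05 in rpt2-3a and 1.28e-05 in Col-0), and the scalings gave 0.29 to 0.76. For all 4 the root arrays and the rosette arrays did not overlap in either genotype on deposited values. The gap was smallest for AT4G36130 in rpt2-3a, at 5.48 in roots against 5.16 in rosettes. There it passed only narrowly after centring (adjusted p = 0.047).

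**Figure D3:**
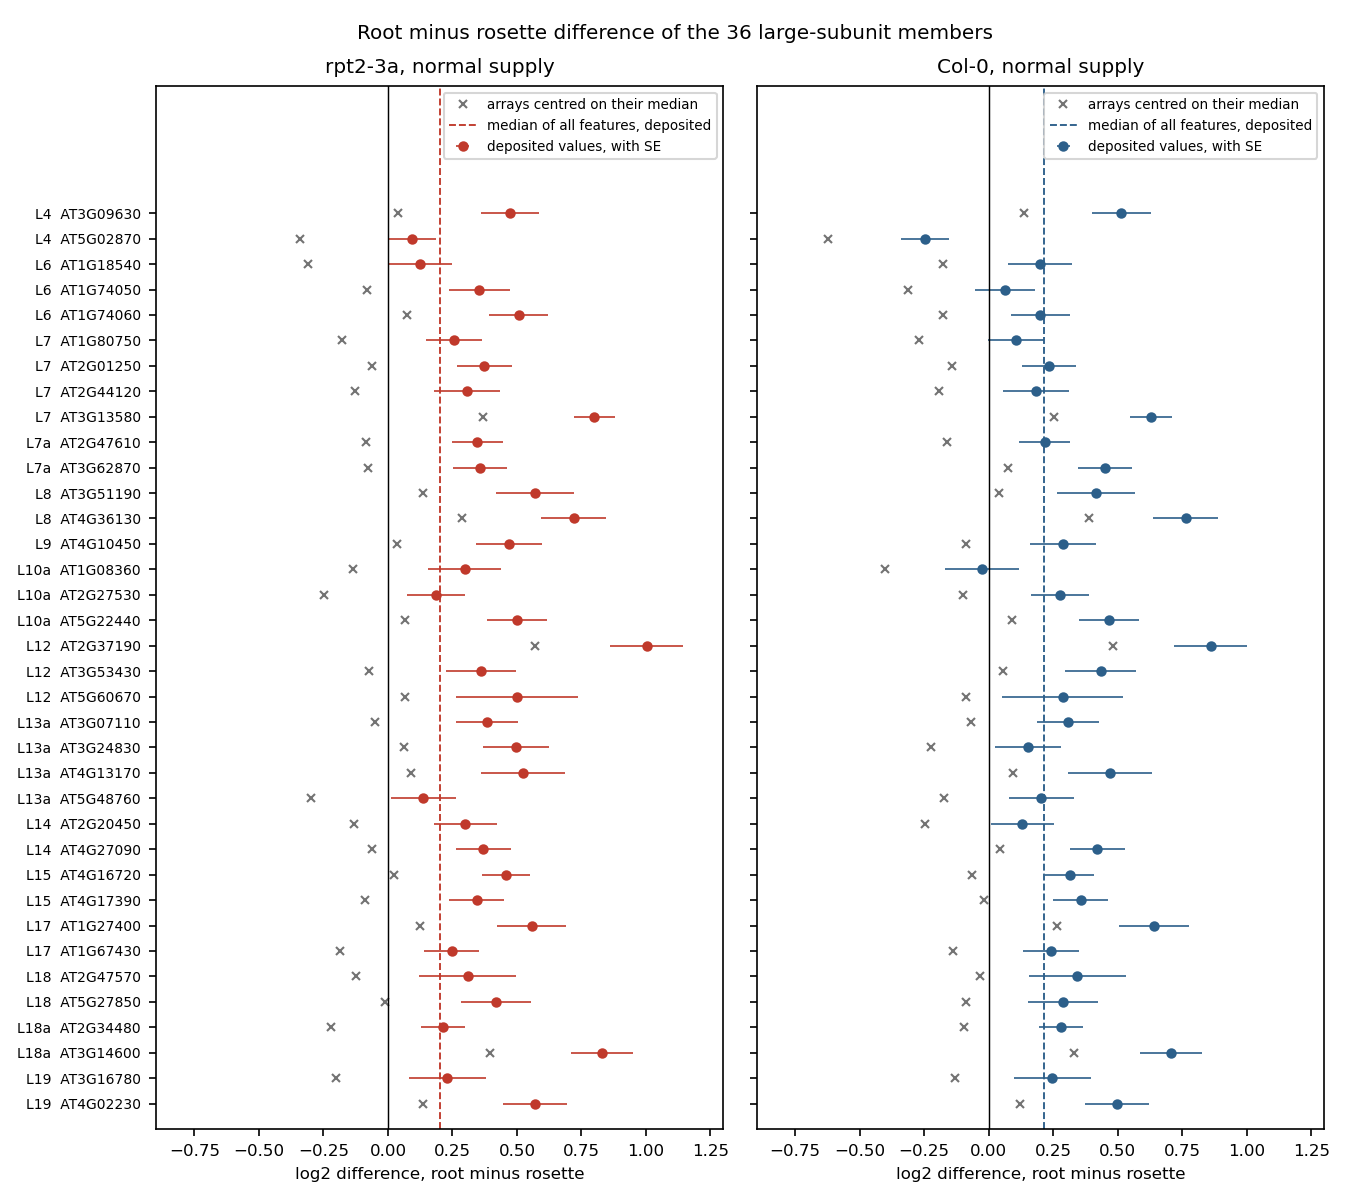
Root minus rosette difference under normal supply for the 36 members, ordered by family, in rpt2-3a (left) and Col-0 (right): filled points with SE bars are deposited values, crosses are values after each array was centred on its median, and the dashed line is the median of all features on deposited values. The crosses lie to the left of the points by a constant, and those of AT2G37190, AT3G13580, AT3G14600 and AT4G36130 remain above 0.25 in both genotypes.

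The other members are given by family, since paralogues of a family mostly encode very similar proteins. Their calls are those on deposited values. After centring the sign turned for 13 of the 27 members that were higher in rpt2-3a roots and for 5 of the 18 in Col-0 roots. Of the L4 genes, AT3G09630 had 5.82, 5.87 and 5.71 in rpt2-3a roots against 5.18, 5.31 and 5.49 in rpt2-3a rosettes, and 5.87, 5.80 and 5.84 in Col-0 roots against 5.34, 5.27 and 5.36 in Col-0 rosettes (0.47 ± 0.11 in rpt2-3a and 0.51 ± 0.11 in Col-0). It was higher in roots of both genotypes on deposited values and passed in neither after centring. AT5G02870 had 7.79, 7.70 and 7.73 in rpt2-3a roots against 7.67, 7.73 and 7.54 in rpt2-3a rosettes, and 7.65, 7.57 and 7.71 in Col-0 roots against 7.87, 7.92 and 7.88 in Col-0 rosettes (0.093 ± 0.094 in rpt2-3a and −0.25 ± 0.094 in Col-0). This L4 gene was the 1 member lower in Col-0 roots (adjusted p = 0.0261), and it was also lower in them after centring (−0.62) and quantile normalization (−0.36). In rpt2-3a it did not pass on deposited values (adjusted p = 0.408) and was lower in roots after centring (−0.34). Its call in Col-0 was lost without replicate 2 of the Col-0 roots (adjusted p = 0.0914) or of the Col-0 rosettes (0.0699).

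The L17 protein lines the exit tunnel together with L4, and its gene AT1G27400 had 6.92, 6.89 and 6.92 in rpt2-3a roots against 6.55, 6.26 and 6.25 in rpt2-3a rosettes, and 6.98, 7.17 and 7.00 in Col-0 roots against 6.41, 6.41 and 6.41 in Col-0 rosettes (0.56 ± 0.14 in rpt2-3a and 0.64 ± 0.14 in Col-0). The 3 Col-0 rosette arrays gave the same value to 2 decimals. Its paralogue AT1G67430 passed in neither genotype on deposited values, with differences that came to 0.25 ± 0.11 in rpt2-3a and 0.24 ± 0.11 in Col-0, and was higher in roots of both after quantile normalization.

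Among the L6 genes, AT1G74060 had 7.43, 7.18 and 7.40 in rpt2-3a roots against 6.75, 6.78 and 6.96 in rpt2-3a rosettes, and 7.46, 7.16 and 7.27 in Col-0 roots against 7.09, 7.05 and 7.15 in Col-0 rosettes (0.51 ± 0.11 in rpt2-3a and 0.20 ± 0.11 in Col-0). Its neighbour AT1G74050 had 6.22, 6.39 and 6.20 in rpt2-3a roots against 5.92, 5.71 and 6.12 in rpt2-3a rosettes, and 6.38, 6.13 and 6.25 in Col-0 roots against 6.20, 6.20 and 6.17 in Col-0 rosettes (0.35 ± 0.12 in rpt2-3a and 0.063 ± 0.12 in Col-0). Both passed as higher in rpt2-3a roots and neither passed in Col-0, while the difference between genotypes did not pass for either. The third L6 gene, AT1G18540, passed in neither genotype (0.12 ± 0.12 in rpt2-3a and 0.20 ± 0.12 in Col-0).

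L7 is encoded by 4 measured genes. Beside AT3G13580, described above, AT2G01250 had 8.97, 8.88 and 8.70 in rpt2-3a roots against 8.47, 8.47 and 8.49 in rpt2-3a rosettes, and 8.79, 8.72 and 8.87 in Col-0 roots against 8.61, 8.52 and 8.55 in Col-0 rosettes (0.37 ± 0.11 in rpt2-3a and 0.23 ± 0.11 in Col-0). AT2G44120 had 7.94, 7.91 and 7.65 in rpt2-3a roots against 7.54, 7.53 and 7.51 in rpt2-3a rosettes, and 7.90, 7.55 and 7.73 in Col-0 roots against 7.71, 7.54 and 7.38 in Col-0 rosettes (0.31 ± 0.13 in rpt2-3a and 0.18 ± 0.13 in Col-0), and AT1G80750 had 7.98, 7.77 and 7.81 in rpt2-3a roots against 7.56, 7.49 and 7.74 in rpt2-3a rosettes, and 7.80, 7.66 and 7.74 in Col-0 roots against 7.72, 7.59 and 7.57 in Col-0 rosettes (0.26 ± 0.11 in rpt2-3a and 0.11 ± 0.11 in Col-0). These 3 were higher in roots of rpt2-3a and did not pass in Col-0. L7a is related to archaeal proteins that bind kinked RNA, and its gene AT3G62870 had 8.06, 7.91 and 7.84 in rpt2-3a roots against 7.60, 7.47 and 7.67 in rpt2-3a rosettes, and 8.08, 7.96 and 7.92 in Col-0 roots against 7.55, 7.64 and 7.42 in Col-0 rosettes (0.36 ± 0.10 in rpt2-3a and 0.45 ± 0.10 in Col-0). AT2G47610 (L7a) had 8.50, 8.45 and 8.33 in rpt2-3a roots against 8.08, 8.13 and 8.03 in rpt2-3a rosettes, and 8.50, 8.18 and 8.47 in Col-0 roots against 8.15, 8.21 and 8.14 in Col-0 rosettes (0.35 ± 0.098 in rpt2-3a and 0.22 ± 0.098 in Col-0). The first passed in both genotypes and the second in rpt2-3a.

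The dim L8 gene AT3G51190 had 2.65, 2.61 and 2.78 in rpt2-3a roots against 2.02, 2.12 and 2.19 in rpt2-3a rosettes, and 2.41, 2.79 and 2.57 in Col-0 roots against 1.93, 2.24 and 2.35 in Col-0 rosettes (0.57 ± 0.15 in rpt2-3a and 0.42 ± 0.15 in Col-0) and was higher in roots of both genotypes. The L9 gene AT4G10450 had 5.95, 6.15 and 5.71 in rpt2-3a roots against 5.41, 5.68 and 5.31 in rpt2-3a rosettes, and 5.92, 5.99 and 5.88 in Col-0 roots against 5.66, 5.71 and 5.56 in Col-0 rosettes (0.47 ± 0.13 in rpt2-3a and 0.29 ± 0.13 in Col-0) and passed in rpt2-3a. L10a forms the movable stalk beside the site where spent tRNA leaves. Its gene AT5G22440 had 5.12, 5.17 and 5.10 in rpt2-3a roots against 4.62, 4.61 and 4.66 in rpt2-3a rosettes, and 5.01, 5.19 and 5.28 in Col-0 roots against 4.60, 4.77 and 4.71 in Col-0 rosettes (0.50 ± 0.12 in rpt2-3a and 0.47 ± 0.12 in Col-0), higher in roots of both genotypes. PGY1 (AT2G27530) had 7.15, 7.02 and 7.11 in rpt2-3a roots against 7.00, 6.78 and 6.94 in rpt2-3a rosettes, and 7.19, 7.09 and 7.09 in Col-0 roots against 6.85, 6.86 and 6.83 in Col-0 rosettes (0.19 ± 0.11 in rpt2-3a and 0.28 ± 0.11 in Col-0). It was the 1 member higher in roots of Col-0 that did not pass in rpt2-3a, and its call in Col-0 (adjusted p = 0.0342) was lost when any 1 of the 6 arrays was left out. The third L10a gene, AT1G08360, passed in neither genotype (0.30 ± 0.14 in rpt2-3a and −0.027 ± 0.14 in Col-0).

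For L12, beside AT2G37190, the gene AT3G53430 had 7.30, 7.08 and 6.96 in rpt2-3a roots against 6.99, 6.55 and 6.72 in rpt2-3a rosettes, and 6.86, 7.25 and 7.04 in Col-0 roots against 6.67, 6.77 and 6.41 in Col-0 rosettes (0.36 ± 0.14 in rpt2-3a and 0.43 ± 0.14 in Col-0). It passed in both genotypes, although the rpt2-3a arrays of the organs overlapped. The dim AT5G60670 (L12) passed in neither (0.50 ± 0.23 in rpt2-3a and 0.29 ± 0.23 in Col-0). L13a, which in mammals is also known for repressing certain mRNAs once released from the ribosome, had 4 measured genes. AT4G13170 had 6.14, 5.75 and 5.80 in rpt2-3a roots against 5.14, 5.28 and 5.70 in rpt2-3a rosettes, and 6.05, 5.75 and 6.29 in Col-0 roots against 5.59, 5.57 and 5.52 in Col-0 rosettes (0.52 ± 0.16 in rpt2-3a and 0.47 ± 0.16 in Col-0), and AT3G07110 had 7.30, 7.10 and 7.15 in rpt2-3a roots against 6.78, 6.78 and 6.84 in rpt2-3a rosettes, and 7.33, 6.86 and 7.14 in Col-0 roots against 6.91, 6.78 and 6.72 in Col-0 rosettes (0.38 ± 0.12 in rpt2-3a and 0.31 ± 0.12 in Col-0). Both were higher in roots of both genotypes. AT3G24830 had 7.13, 6.88 and 7.09 in rpt2-3a roots against 6.35, 6.64 and 6.62 in rpt2-3a rosettes, and 6.94, 6.65 and 7.02 in Col-0 roots against 6.71, 6.71 and 6.73 in Col-0 rosettes (0.50 ± 0.13 in rpt2-3a and 0.15 ± 0.13 in Col-0) and passed in rpt2-3a, while AT5G48760 passed in neither (0.14 ± 0.13 in rpt2-3a and 0.20 ± 0.13 in Col-0).

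L14, L15, L18, L18a and L19 have no bacterial counterpart. AT4G27090 (L14) had 9.49, 9.16 and 9.22 in rpt2-3a roots against 8.92, 8.99 and 8.85 in rpt2-3a rosettes, and 9.28, 9.18 and 9.45 in Col-0 roots against 8.90, 8.89 and 8.86 in Col-0 rosettes (0.37 ± 0.11 in rpt2-3a and 0.42 ± 0.11 in Col-0), higher in roots of both genotypes. AT2G20450 (L14) had 7.79, 7.63 and 7.55 in rpt2-3a roots against 7.29, 7.41 and 7.37 in rpt2-3a rosettes, and 7.50, 7.29 and 7.66 in Col-0 roots against 7.41, 7.41 and 7.24 in Col-0 rosettes (0.30 ± 0.12 in rpt2-3a and 0.13 ± 0.12 in Col-0) and passed in rpt2-3a. Of the L15 genes, AT4G16720 had 8.77, 8.70 and 8.59 in rpt2-3a roots against 8.20, 8.25 and 8.24 in rpt2-3a rosettes, and 8.69, 8.44 and 8.69 in Col-0 roots against 8.36, 8.25 and 8.27 in Col-0 rosettes (0.46 ± 0.094 in rpt2-3a and 0.31 ± 0.094 in Col-0) and AT4G17390 had 7.86, 7.97 and 7.91 in rpt2-3a roots against 7.42, 7.78 and 7.51 in rpt2-3a rosettes, and 7.87, 7.77 and 7.82 in Col-0 roots against 7.55, 7.45 and 7.39 in Col-0 rosettes (0.34 ± 0.11 in rpt2-3a and 0.36 ± 0.11 in Col-0). Both L15 genes were higher in roots of both genotypes.

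AT5G27850 (L18) had 7.92, 7.61 and 7.61 in rpt2-3a roots against 7.33, 7.16 and 7.39 in rpt2-3a rosettes, and 7.67, 7.15 and 7.85 in Col-0 roots against 7.28, 7.33 and 7.20 in Col-0 rosettes (0.42 ± 0.14 in rpt2-3a and 0.29 ± 0.14 in Col-0) and passed in rpt2-3a, whereas the dim AT2G47570 (L18) passed in neither (0.31 ± 0.19 in rpt2-3a and 0.34 ± 0.19 in Col-0). AT2G34480 (L18a) had 8.16, 7.92 and 8.13 in rpt2-3a roots against 7.83, 7.87 and 7.87 in rpt2-3a rosettes, and 8.21, 8.17 and 8.12 in Col-0 roots against 7.92, 7.87 and 7.87 in Col-0 rosettes (0.21 ± 0.087 in rpt2-3a and 0.28 ± 0.087 in Col-0) and was higher in roots of both genotypes on deposited values. After centring its sign turned, to −0.22 in rpt2-3a, where it passed as lower, and −0.097 in Col-0, where it did not pass. L19 takes part in a bridge to the small subunit. AT4G02230 (L19) had 7.35, 7.64 and 7.81 in rpt2-3a roots against 7.20, 6.98 and 6.91 in rpt2-3a rosettes, and 7.66, 7.59 and 7.78 in Col-0 roots against 7.24, 7.15 and 7.15 in Col-0 rosettes (0.57 ± 0.12 in rpt2-3a and 0.50 ± 0.12 in Col-0), higher in roots of both genotypes, and AT3G16780 (L19) passed in neither (0.23 ± 0.15 in rpt2-3a and 0.25 ± 0.15 in Col-0).

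Of the 27 members that passed between organs in rpt2-3a, 19 passed whichever of the 6 arrays was left out, and 8 did not. The 8 were AT1G74050 (L6), AT1G80750 and AT2G44120 (L7), AT3G53430 (L12), AT4G13170 (L13a), AT2G20450 (L14), AT5G27850 (L18) and AT2G34480 (L18a). AT1G74050 was lost without replicate 2 of the roots (adjusted p = 0.0608) or of the rosettes (0.0896), and the other 7 were lost at least without root replicate 1, with adjusted p-values from 0.0534 to 0.177 there. Of the 19 members that passed in Col-0, 13 did so throughout. The 6 lost ones were AT5G02870 and PGY1, given above, and 4 more. AT4G13170 (L13a) was lost without root replicate 3 (adjusted p = 0.0972) and AT3G07110 (L13a) most clearly without root replicate 1 (0.194). AT3G51190 (L8) was lost without root replicate 2 or rosette replicate 1, and AT3G53430 (L12) without root replicate 2 or rosette replicate 3.

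A difference between paralogues on the same array does not depend on a constant added to that array. For the 30 pairs within families, this difference was averaged over the 12 root arrays and the 12 rosette arrays, each pair ordered so that the shift towards roots was positive. The shift had a median of 0.21 and ran from 0.0058 to 0.60 on the log2 scale. By this ordering it is positive for every pair, and unrelated gene pairs were not examined beside it. The largest shift was that of AT2G37190 and the dim AT5G60670 (L12). For some pairs the sign differed between groups, as for L19, at 0.34 in rpt2-3a under normal supply and −0.26 in rpt2-3a under deficient supply. The pairs below were picked after their values had been seen and carry no test. For L7, AT3G13580 minus AT1G80750 lay between −0.83 and −0.47 on root arrays and between −1.35 and −1.03 on rosette arrays, so that the organs did not overlap, and the mean shift was 0.50. For L12, AT2G37190 minus AT3G53430 lay between −1.50 and −0.63 in roots against −2.12 to −1.29 in rosettes, a shift of 0.53. For L4, AT3G09630 minus AT5G02870 lay between −2.09 and −1.77 in roots against −2.65 to −1.78 in rosettes, a shift of 0.45. For L18a, AT3G14600 minus AT2G34480 lay between −0.01 and 0.51 in roots against −0.48 to 0.06 in rosettes, a shift of 0.45. The organs overlapped for these last 3 pairs. At the other end, the L15 pair shifted by 0.023 and the L7a pair by 0.024.

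**Figure D4:**
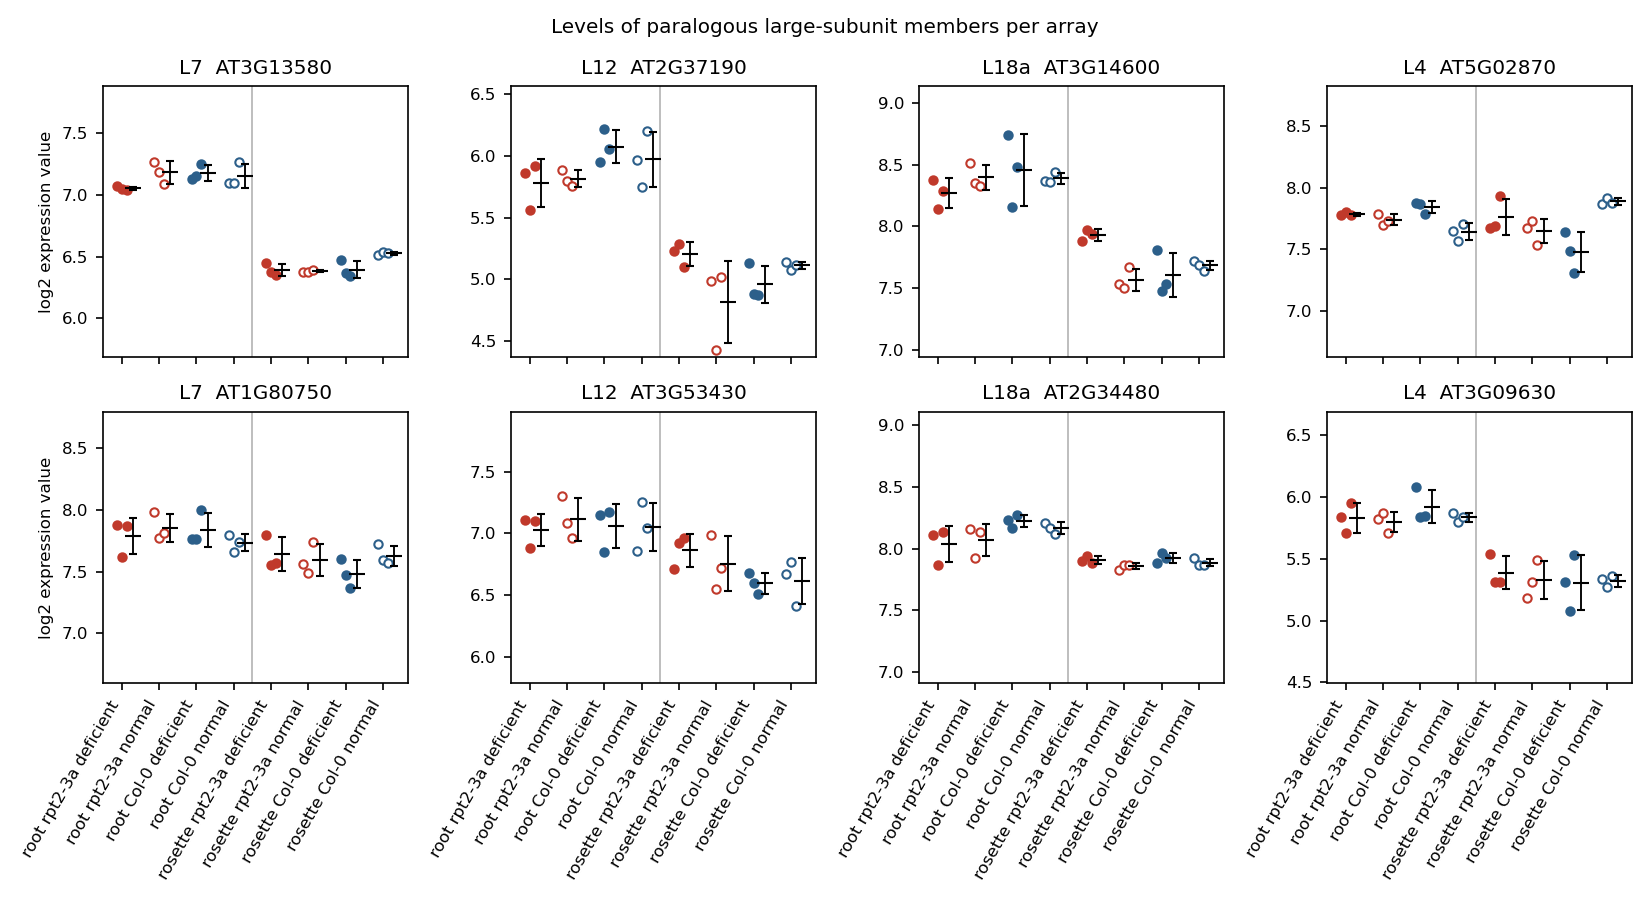
Log2 expression values of 4 pairs of paralogues on the 24 arrays, 1 pair a column; points are arrays (red rpt2-3a, blue Col-0, filled deficient, open normal supply), black bars are group means ± SD (n = 3), and each axis spans the same log2 range around its gene's mean. In the L7, L12 and L18a columns the upper gene is further apart between roots (left of the grey line) and rosettes than the lower one, and in the L4 column AT5G02870 overlaps between organs while AT3G09630 does not.

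Other parts of the translation machinery were counted in the same way. Of the other 60S proteins, from L22 to L41 and the stalk proteins, 53 of 71 listed loci were measured, and of the small subunit 60 of 95. On deposited values 27 of the 53 other 60S proteins were higher and 2 lower in rpt2-3a roots than in rpt2-3a rosettes (median 0.31), and 21 were higher and 2 lower in Col-0 roots (median 0.22). After centring 8 were higher and 16 lower in rpt2-3a (median −0.13), and 3 were higher and 14 lower in Col-0 (median −0.16). For the small subunit 32 of the 60 were higher and 2 lower in rpt2-3a roots (median 0.31), and 27 were higher and 3 lower in Col-0 roots (median 0.22). After centring 11 were higher and 18 lower in either genotype. Quantile normalization gave 16 higher and 7 lower of the other 60S proteins in rpt2-3a, and 13 higher and 7 lower in Col-0. For the small subunit it gave 20 higher and 5 lower in rpt2-3a, and 20 higher and 6 lower in Col-0. AT3G04230, a small-subunit gene, was 2.26 ± 0.19 higher in rpt2-3a roots and 2.15 ± 0.19 higher in Col-0 roots. AT2G37600, of the other 60S proteins, was lower in roots, by −1.08 ± 0.15 for rpt2-3a and −1.15 ± 0.15 for Col-0.

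Of 11 measured factors of ribosome assembly among 32 listed, 10 were higher in rpt2-3a roots and 9 in Col-0 roots on deposited values. After centring 3 were higher and 1 lower in rpt2-3a, and 4 were higher and 0 lower in Col-0. The smallest p among them was that of DIM1A, a methyltransferase of ribosomal RNA, 1.26 ± 0.13 higher in rpt2-3a roots and 1.49 ± 0.13 higher in Col-0 roots. All 6 measured plastid ribosomal proteins of 25 listed were lower in roots under each of the 3 scalings, with a median of −3.74 for rpt2-3a and −3.91 for Col-0 on deposited values. Plastid ribosomes are a separate, bacterial-type machinery that translates the chloroplast's own genes.

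Markers of dividing cells were counted too, through the genes AUR1, AUR2 and AUR3. The 3 measured of 20 listed were higher in rpt2-3a roots and 2 of them in Col-0 roots on deposited values, and 1 in rpt2-3a and 2 in Col-0 after centring. Among them the mitotic kinase gene AUR1 lay between 6.46 and 6.87 on root arrays and between 4.62 and 5.54 on rosette arrays. AUR3 lay between 3.83 and 4.64 on root arrays and between 3.33 and 3.70 on rosette arrays. AUR2 overlapped between organs, at 4.16 to 4.46 in roots against 3.85 to 4.22 in rosettes. Their part in the organ difference of the large-subunit members was not tested. No gene of any of these lists passed in a comparison within organs. In rosettes under deficient supply, 44 of the 53 other 60S proteins and 50 of the 60 small-subunit proteins had a higher mean in rpt2-3a than in Col-0, with medians of 0.17 and 0.16. Between supplies in rpt2-3a rosettes, 46 of the 53 and 44 of the 60 had a higher mean under deficient supply, with medians of 0.20 and 0.10. So had 6 of 6 plastid ribosomal proteins (median 0.33) and 6 of 11 ribosome assembly factors (median 0.023). For the difference of the sulfur responses in rosettes the medians were 0.27 for the other 60S proteins and 0.19 for the small subunit, beside 0.17 for the 36 members. The 11 ribosome assembly factors had a median of 0.020, with 6 of 11 above 0, and the 6 plastid ribosomal proteins had a median of 0.37, with 6 of 6 above 0.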

How the data were processed

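Total RNA was labelled with a WT terminal labelling kit and hybridised to 24 single-colour Affymetrix arrays, per the labels' protocols. The authors deposited 1 value per feature and array, read here as log2 expression values because they run from 0.93 to 12.77. Transcriptome Analysis Console was used, per the submitters' processing notes. The sources used here do not give its version, the summarisation, the normalization, the log base or a genome build, so fold changes assume base 2 and the centring of the values stays unknown. Neither a scan date nor another batch was given. Arrays of a group correlated with r from 0.989 to 0.994 over features, and at most 2.2% of their values were identical.

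Features were named through the platform's probe-to-gene table, which pairs 16746 with exactly 1 gene, 758 with several and 11079 with none. Gene identifiers linked 16601 of the first kind to the RefSeq table of TAIR10.1, used for names and neighbouring genes only. Family names and roles are general knowledge. Sequences were not used here.

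Every test was a limma 3.58.1 fit (lmFit and eBayes, under R 4.3.3) on the deposited values, with no filter and 1 mean per group: 12 arrays and 8 residual degrees of freedom within an organ, 24 arrays and 16 between organs. In each of the 14 comparisons p-values were two-sided and Benjamini-Hochberg adjusted over 28583 features, with a threshold of 0.05. Errors are SE of the fit and intervals are pointwise at 95%. The fit was tested on simulated data. The members and gene lists were chosen with earlier results of these data known. Values per array are given for members that passed in any comparison and for the 3 highest and 3 lowest in each genotype comparison, with others added after their values were seen. Genes outside the members were named where they passed, by smallest p, at most 4 a list. Replicate numbers were not used to pair the arrays in the main fits. In no comparison did every same-numbered pair correlate above 0.1 in its deviations from the group means. Single pairs did, up to 0.242 for replicate 1 of the Col-0 rosettes between supplies, so a pairing is not excluded. The alternatives were 2 scalings of the arrays, a replicate block, fits of the compared groups only, trended and robust variances, array weights, dim features left out, and leaving out each array in turn.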

Additional observations from a re-analysis of the deposited data

How the results depend on the processing

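Within organs and for the organ-by-genotype differences, no member passed under any alternative, except 2 in rpt2-3a rosettes (deficient minus normal supply) with dim features left out and 2 with trended and robust variances, the same genes both times. With the replicate block 0 members passed in these 12 comparisons, and 28 were higher and 0 lower in rpt2-3a roots, and 19 higher and 1 lower in Col-0 roots, so that the block changed no count by more than 1.5 times. Taking every feature of a locus was not run, because each has 1. After centring, roots against rosettes gave 4 higher, 5 lower and a median of −0.062 in rpt2-3a, and 4 higher, 4 lower and a median of −0.09 in Col-0. Signs then turned in rpt2-3a for AT1G74050 (−0.08), AT1G80750 (−0.18), AT2G01250 (−0.06), AT2G20450 (−0.13), AT2G34480 (−0.22), AT2G44120 (−0.13), AT2G47610 (−0.087), AT3G07110 (−0.05), AT3G53430 (−0.073), AT3G62870 (−0.077), AT4G17390 (−0.09), AT4G27090 (−0.063) and AT5G27850 (−0.013). In Col-0 they turned for AT2G27530 (−0.1), AT2G34480 (−0.097), AT3G07110 (−0.07), AT4G16720 (−0.063) and AT4G17390 (−0.02). Quantile normalization gave 12 higher and a median of 0.185 in rpt2-3a, and 11 higher and a median of 0.161 in Col-0. The subtraction of unequal array medians produces the shift on centring, and which scaling is nearer to RNA amounts was not tested. In the fit of the compared groups only, 0 members were lower in Col-0 roots in place of 1. Leaving out 1 array gave 20 to 26 members higher in rpt2-3a roots, 15 to 18 higher and 0 to 1 lower in Col-0 roots. It moved the median of rpt2-3a minus Col-0 in rosettes under deficient supply between 0.096, without replicate 2 of those Col-0 arrays, and 0.206, without replicate 1. It moved the median of the Col-0 rosette response between −0.133, without the same replicate 1, and −0.036, without its replicate 2. In roots the median of rpt2-3a minus Col-0 under normal supply was 0.005 with centred arrays and 0.007 with quantile normalization. It was 0.01 with array weights, and 0.003 or 0.039 without replicate 1 or 3 of the Col-0 roots. With centred arrays the Col-0 root response had a median of 0.058, and the difference of root responses −0.06. Without leaving out an array, the rpt2-3a root response ran from −0.008 to 0.017. Other root medians that moved by over 1.5 times without 1 array stand beside their values. For roots under normal supply, rpt2-3a minus Col-0 ran from −0.24 to 0.0017 for AT4G36130, which turned without replicate 3 of rpt2-3a, and from −0.047 to 0.30 for AT5G27850, which turned without replicate 2 of Col-0. The other causes were not tested. Of 906 results for single named members under an alternative, 793 kept direction and side of the threshold, 93 no longer passed and 20 turned sign. The 906 include members named from the genotype comparisons, none of which passed in the main fit. For these, staying on the same side of the threshold says little about stability. A result that turned sign was counted only as such, whether or not it still passed.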
